A study of Rattus norvegicus with 14 samples.

Results

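The striated muscle miRNAs of rat serum are described here: miR-206, miR-1, miR-133a, miR-133b and miR-499, the miRNAs that skeletal and heart muscle fibres make in large amounts. Members were chosen by name, as every listed mature miRNA that is an arm of miR-1, miR-133a, miR-133b, miR-206, miR-208a, miR-208b or miR-499. This gave 8 of the 375 listed miRNAs. All 8 passed the filter on low counts, which left 357 miRNAs to test. The arms miR-1-5p and miR-499-3p, and the heart miRNAs miR-208a and miR-208b, were not analysed here.

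The libraries were made from cell-free serum RNA of female Long Evans rats at postnatal day 8, with 1 pup taken from each litter. In the PTU group (6 pups) the dams had received 3 ppm of propylthiouracil (PTU), an inhibitor of thyroid hormone production, in their water during pregnancy or lactation, and the labels call these pups hypothyroid. In the Control group (8 pups) the dams received water with 0 ppm, and the labels call these pups euthyroid. No pup was dosed directly, and the labels give no hormone level of any pup, so the degree of hypothyroidism of each library's donor is not known here.

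MicroRNAs are short RNAs that pair with messenger RNAs through their seed, bases 2 to 8, and lower the output of those messages. miR-1 and miR-133a are made together in heart and skeletal muscle, where miR-1 favours differentiation of muscle precursors and miR-133 their proliferation. miR-206 and miR-133b are made together and mainly in skeletal muscle, where miR-206 is linked to regeneration and to the nerve-muscle synapse. miR-499 is carried in an intron of Myh7b, a slow-type myosin gene, and thyroid hormone is a known regulator of the balance between slow and fast myosins in muscle.

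The mature sequences are shown because they sort the miRNAs into families and show which ones a read can be confused between. They are RefSeq's sequences for rat assembly GRCr8, written 5′ to 3′ with the seed in capitals. The first pair shares 1 seed, GGAAUGU.
miR-206-3p: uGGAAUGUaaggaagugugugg
miR-1-3p: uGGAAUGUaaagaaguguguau
The 3p arms of miR-133 share the seed UUGGUCC.
miR-133a-3p: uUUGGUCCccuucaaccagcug
miR-133b-3p: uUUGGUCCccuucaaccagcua
The 5p arms of miR-133 and miR-499-5p each have a seed of their own.
miR-133a-5p: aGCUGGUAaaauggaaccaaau
miR-133b-5p: gCUGGUCAaacggaaccaagu
miR-499-5p: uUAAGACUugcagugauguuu

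miR-206-3p and miR-1-3p are identical at 19 of 22 positions (86.4%) and differ by G11A, G21A and G22U, where positions count from 1 at the 5′ end and the miR-206-3p base comes first. miR-133a-3p and miR-133b-3p are identical at 21 of 22 positions (95.5%) and differ only by G22A, their last base. A read that lacks its last base cannot be assigned to one or the other, so the split between these arms depends on how the authors counted, a step no label describes. RefSeq sequences were found for 325 tested miRNAs, and none outside the group had any of these seeds. In the RefSeq gene order of GRCr8, Mir206 and Mir133b are direct neighbours, Mir1 and Mir133a1 are separated by 1 gene, Mir3571, and Mir499a lies beside Myh7b.

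Totals over the 375 listed miRNAs ran from 452961 in Control 5 to 2119979 in PTU 3, and differed widely within each group. Levels below are CPM (counts scaled to library size), and 3 counts correspond to 1.44 to 6.38 CPM, depending on the library. PTU 6 stood apart for some miRNAs outside the muscle group, such as miR-29b-3p. It had the highest scaling factor of the 14 libraries (1.19), by which CPM are divided. In CPM it was the lowest PTU library for 7 of the 8 members. As a percent of counts it was the lowest only for miR-133b-3p and miR-499-5p. The summed level of 4 red cell miRNAs ran from 1801 to 6053 CPM in Control and from 2851 to 19306 CPM in PTU, where PTU 6 was highest and the next library stood at 12481 CPM. None of the 4 passed the test, and their part in the results was not tested. Before adjustment all 4 had a p under 0.05 (edgeR), and 2 had without PTU 6. The median log2 fold change of the 4 was 1.07, and 0.805 without PTU 6, with all 4 above 0 in both fits. The log2 fold change of miR-451-5p, the main red cell miRNA, was 0.93, and 0.48 without PTU 6. For miR-363-3p these values were 0.82 and 0.28, for miR-144-3p 1.21 and 1.13, and for miR-144-5p 1.41 and 1.497.

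The muscle miRNAs took up a large share of everything counted in pup serum. Together they took from 42.9% (Control 5) to 50.1% (Control 8) of the counts in Control libraries, with a mean of 47.5% ± 2.38 (SD, n = 8). In PTU libraries they took from 39.9% (PTU 4) to 53.1% (PTU 2), with a mean of 45.04% ± 5.03 (SD, n = 6). The ranges of the groups overlapped, and the PTU libraries reached both below and above all Control libraries. Of the muscle counts, miR-206-3p made up 79.4% in Control and 81.7% in PTU, miR-1-3p 15.0% and 12.7%, and miR-133a-3p 5.24% and 5.08%, as means of the libraries. The 8 members ranked 1, 3, 6, 63, 123, 195, 295 and 324 in abundance among the 357 tested miRNAs.

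No muscle miRNA passed the test between PTU and Control pups, and no miRNA of any kind did (edgeR's quasi-likelihood test, Benjamini-Hochberg adjusted p under 0.05, 0 of 357 miRNAs, 0%). Before adjustment, 47 of 357 miRNAs (13.2%) had a p under 0.05. One of the 8 muscle miRNAs, miR-1-3p, was among the 19 of these that were lower in PTU (5.32%), and 0 of the 8 were among the 28 that were higher (7.84%). The fitted log2 fold changes of the members were split, with 4 above and 4 below 0 and a median of -0.04. Over all 357 tested miRNAs 206 were above and 151 below 0, with a median of 0.03. DESeq2 called 1 miRNA and the likelihood ratio test of edgeR 3, none of them a muscle miRNA. In serum, fewer cells that release a miRNA and less RNA released by each cell cannot be told apart.

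**Figure D1:**
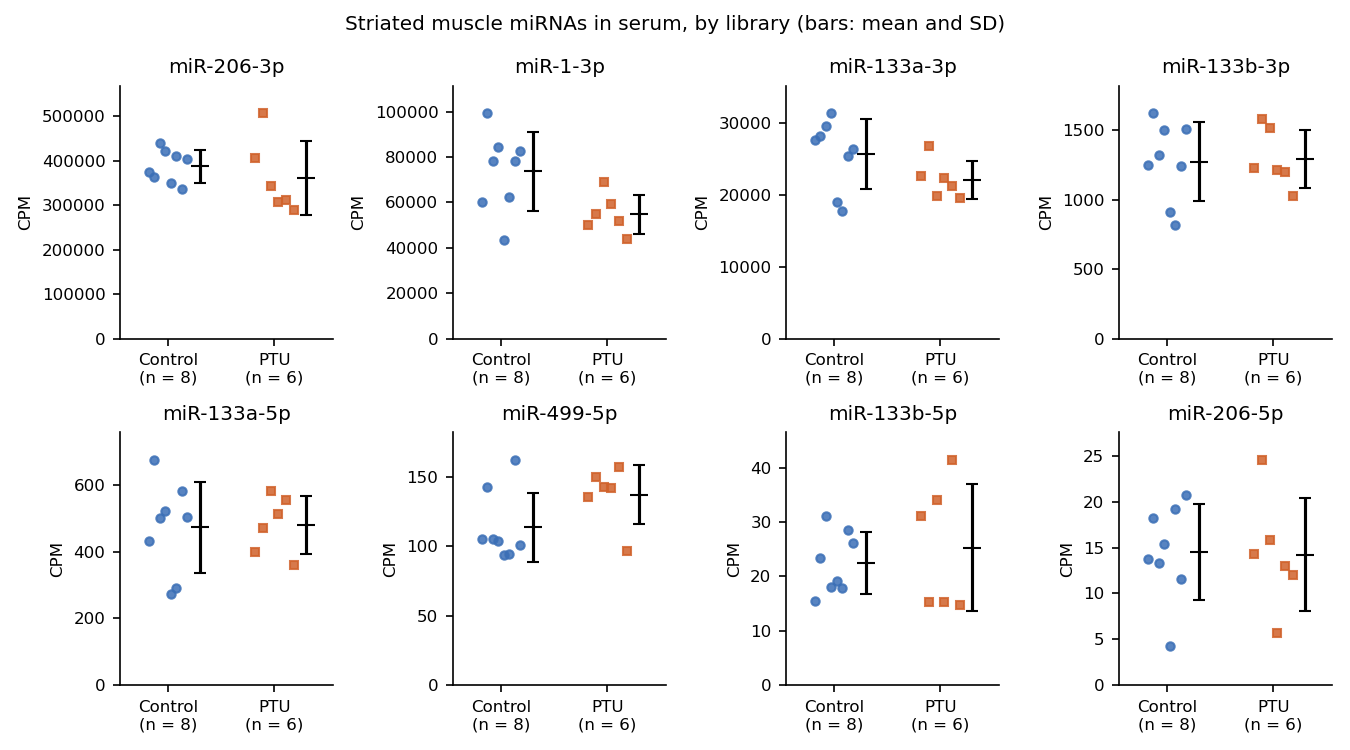
Level of each of the 8 striated muscle miRNAs in every library, in CPM (linear axes that start at 0, 1 panel per miRNA). Points are libraries, 8 Control and 6 PTU, and bars are group means with SD. The PTU points of miR-1-3p all lie below the Control median of 78304 CPM, while those of the other abundant miRNA, miR-206-3p, spread from 289546 to 507319 CPM.

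miR-206-3p, the skeletal muscle miRNA, was the most abundant miRNA in the serum. Its level in Control libraries was lowest at 336418 CPM (Control 7), had a median of 389084 CPM and was highest at 440167 CPM (Control 3). In PTU libraries it ran from 289546 CPM (PTU 6) through a median of 327178 CPM to 507319 CPM (PTU 2). The highest value and the lowest value of all 14 libraries were thus both PTU pups, and the groups overlapped. The group means were 387338 ± 36866 CPM (SD, n = 8) and 361002 ± 82741 CPM (SD, n = 6), and the fitted log2 difference was -0.10 ± 0.12 (SE), with a 95% interval from -0.36 to 0.16 (edgeR quasi-likelihood test, adjusted p = 0.752). With 1 library left out it ran from -0.22 without PTU 2 (edgeR, adjusted p = 0.331) to -0.04 without PTU 4, so its size depended on single PTU pups.

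miR-1-3p, its seed partner, which heart muscle makes too, was lower in the PTU group before adjustment. Control libraries ran from 43563 CPM (Control 5) through a median of 78304 CPM to 99422 CPM (Control 2). PTU libraries ran from 43764 CPM (PTU 6) through a median of 53271 CPM to 68842 CPM (PTU 3). All 6 PTU libraries lay below the Control median, a pattern that 25 of the 357 tested miRNAs shared (7.00%), but the lowest library of all was a Control, so the groups overlapped. The means were 73664 ± 17360 CPM (SD, n = 8) and 54725 ± 8625 CPM (SD, n = 6). The fitted log2 difference was -0.43 ± 0.16 (SE), and its 95% interval ran from -0.76 to -0.09 (edgeR quasi-likelihood test, unadjusted p = 0.0154, adjusted p = 0.258). In the authors' deposited table the log2 fold change of miR-1-3p was -0.42, with an FDR of 0.359.

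miR-133a-3p, which in mouse shares a primary transcript with miR-1, also had all 6 PTU libraries below the Control median. Control libraries ran from 17762 CPM (Control 6) through a median of 26981 CPM to 31356 CPM (Control 4), and PTU libraries from 19564 CPM (PTU 6) through 21741 CPM to 26725 CPM (PTU 2). The groups overlapped, because Control 5 and Control 6 lay below all PTU libraries. The means were 25655 ± 4867 CPM (SD, n = 8) and 22040 ± 2611 CPM (SD, n = 6), and the fitted log2 difference of -0.22 ± 0.14 (SE) was not past the threshold (edgeR, adjusted p = 0.486). With 1 library left out it ran from -0.29 without Control 6 to -0.14 without Control 4. miR-1-3p and miR-133a-3p were the members without a PTU library above the Control median, and 0 of the 8 members were among the 2 of 357 miRNAs (0.560%) whose groups did not overlap.

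The 3p arm of miR-133b, the skeletal muscle partner of miR-206, had group medians that lay close together. It ran from 818 CPM (Control 6) through 1285 CPM to 1624 CPM (Control 2) in Control libraries and from 1023 CPM (PTU 6) through 1221 CPM to 1580 CPM (PTU 2) in PTU libraries. The PTU range lay inside the Control range. Its log2 difference between the groups was 0.02 ± 0.17 (SE), with an interval from -0.33 to 0.37 that leaves room for a change in either direction (edgeR, adjusted p = 0.968).

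miR-499-5p, the miRNA of the slow myosin gene Myh7b, was the member with the largest positive fold change. Control libraries ran from 93.5 CPM (Control 5) through a median of 105 CPM to 163 CPM (Control 7). PTU libraries ran from 96.6 CPM (PTU 6) through a median of 142 CPM to 157 CPM (PTU 5). In PTU, 5 of 6 libraries lay above the Control median, and PTU 6 lay below it, so the groups overlapped. The means were 114 ± 25.2 CPM (SD, n = 8) and 137 ± 21.3 CPM (SD, n = 6), and the fitted log2 difference of 0.27 ± 0.17 (SE) was not past the threshold (edgeR, adjusted p = 0.486).

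The passenger arms, the strands of each precursor that are mostly discarded, were rarer and none passed the test. miR-133a-5p ran from 274 to 676 CPM around a median of 501 CPM in Control and from 361 to 583 CPM around 491 CPM in PTU, with a log2 fold change of 0.02 ± 0.20 (SE; edgeR, adjusted p = 0.968). miR-133b-5p ran from 15.5 to 31.0 CPM around 21.3 CPM in Control and from 14.8 to 41.5 CPM around 23.1 CPM in PTU (0.16 ± 0.27; edgeR, adjusted p = 0.868). miR-206-5p, the least abundant, ran from 4.25 to 20.8 CPM around 14.6 CPM in Control and from 5.72 to 24.6 CPM around 13.7 CPM in PTU (-0.10 ± 0.29; edgeR, adjusted p = 0.934). All 3 had a PTU range that overlapped the Control range. miR-206-5p rested on only 2 to 35 counts per library, and no mature sequence of it is printed.

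The abundant members differed in how much they varied among pups of a group. In Control libraries miR-206-3p had a coefficient of variation of 9.52%, rank 16 from the lowest of 357 miRNAs, against a median of 23.4% over all tested. In PTU libraries it was 22.9%, rank 126, against a median of 27.7%. The other members of high count went the other way: miR-1-3p had 23.6% in Control and 15.8% in PTU, and miR-133a-3p 19.0% and 11.8%. Whether the spread differed between groups was not tested. Counting error alone would give miR-206-3p 0.177% in Control and 0.157% in PTU, far under its observed spread. For the rare arms in Control it came close to the observed value, at 35.1% beside 35.9% for miR-206-5p and 24.3% beside 25.3% for miR-133b-5p.

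Ratios between members within a library do not depend on scaling, and 7 of them were compared by exact two-sided permutation tests over all 3003 assignments of the libraries, with p adjusted over the 7. The ratio of the near-identical arms miR-133a-3p to miR-133b-3p had the smallest p. It ran on the log2 scale from 4.12 (Control 2) through 4.38 to 4.48 (Control 3) in Control and from 3.71 (PTU 3) through 4.17 to 4.26 (PTU 6) in PTU. All 6 PTU libraries lay below the Control median, but Control 2 and Control 8 lay below 4 of the PTU libraries, so the groups overlapped. The geometric mean ratios were 20.3 and 17.1 counts of miR-133a-3p to 1 of miR-133b-3p, a log2 difference of -0.24 (exact permutation p = 0.0133, adjusted p = 0.0932), which did not pass. With each library left out in turn, the difference ran from -0.28 to -0.17. The adjusted permutation p then ran from 0.0326 to 0.171. It was past the threshold only without Control 2 or without Control 8 (0.0326 in both). This ratio also fell with the total count of the library (r = -0.69, permutation p = 0.00700, adjusted p = 0.0163 over 7 ratios). By rank the relation did not pass (rho = -0.56, permutation p = 0.0397, adjusted p = 0.0635). The r was -0.68 in Control and -0.84 in PTU, and -0.54 over all libraries without Control 5 and PTU 3. PTU 3, its lowest library, had the largest total, and with the total as a covariate the difference was -0.19 (permutation of residuals, adjusted p = 0.0528). Because these arms differ only by G22A, the authors' counting bears on this ratio.

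The other 6 ratios did not pass either. miR-1-3p to miR-206-3p, the seed-sharing pair, had means of -2.43 ± 0.36 (log2, SD, n = 8) in Control and -2.71 ± 0.36 in PTU (SD, n = 6), a difference of -0.28 (exact permutation p = 0.175, adjusted p = 0.314). miR-1-3p to miR-133a-3p, which share a transcript in mouse, had means of 1.51 ± 0.26 and 1.31 ± 0.27 (difference -0.20, exact permutation p = 0.179, adjusted p = 0.314). miR-133b-3p to miR-206-3p, which are neighbours in the genome, differed by 0.17 (exact permutation p = 0.351, adjusted p = 0.491). With 1 library left out these differences ran from -0.36 (without Control 5) to -0.18 (without PTU 2), from -0.30 (without PTU 3) to -0.15 (without PTU 2), and from 0.068 (without Control 6) to 0.23 (without Control 2). In each of these 3 ratios the groups overlapped, and at this number of pups a difference of their size was not past the threshold. All 3 rose with the total count of the library (r = 0.66, 0.56 and 0.76 in the same order). The permutation p of these r, adjusted over 7 ratios, was 0.0164, 0.0445 and 0.00497. With the total as a covariate, miR-1-3p to miR-133a-3p differed by -0.29 and miR-133b-3p to miR-206-3p by 0.063 (permutation of residuals, adjusted p = 0.0528 and 0.890).

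The ratio of the arms of 1 precursor says how much of each strand is counted. The 3p arm of miR-133a outnumbered its 5p arm 55.6 to 1 in Control and 46.4 to 1 in PTU (geometric means), a log2 difference of -0.26 (exact permutation p = 0.112, adjusted p = 0.314). This ratio fell with the total count of the library (r = -0.77, permutation p of r adjusted over 7 ratios = 0.00497). With the total as a covariate the difference was -0.16 (permutation of residuals, adjusted p = 0.296). The arms of miR-133b stood at 56.8 to 1 and 55.4 to 1, and those of miR-206 at 28870 to 1 and 27083 to 1, both with an adjusted p of 0.8998 (exact permutation test). Against the total, r was 0.02 for the arms of miR-133b and -0.57 for those of miR-206 (adjusted permutation p = 0.946 and 0.0445). Without Control 5 and PTU 3 the r for miR-206 was -0.20. The counts came almost entirely from the 3p arms in both groups.

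**Figure D2:**
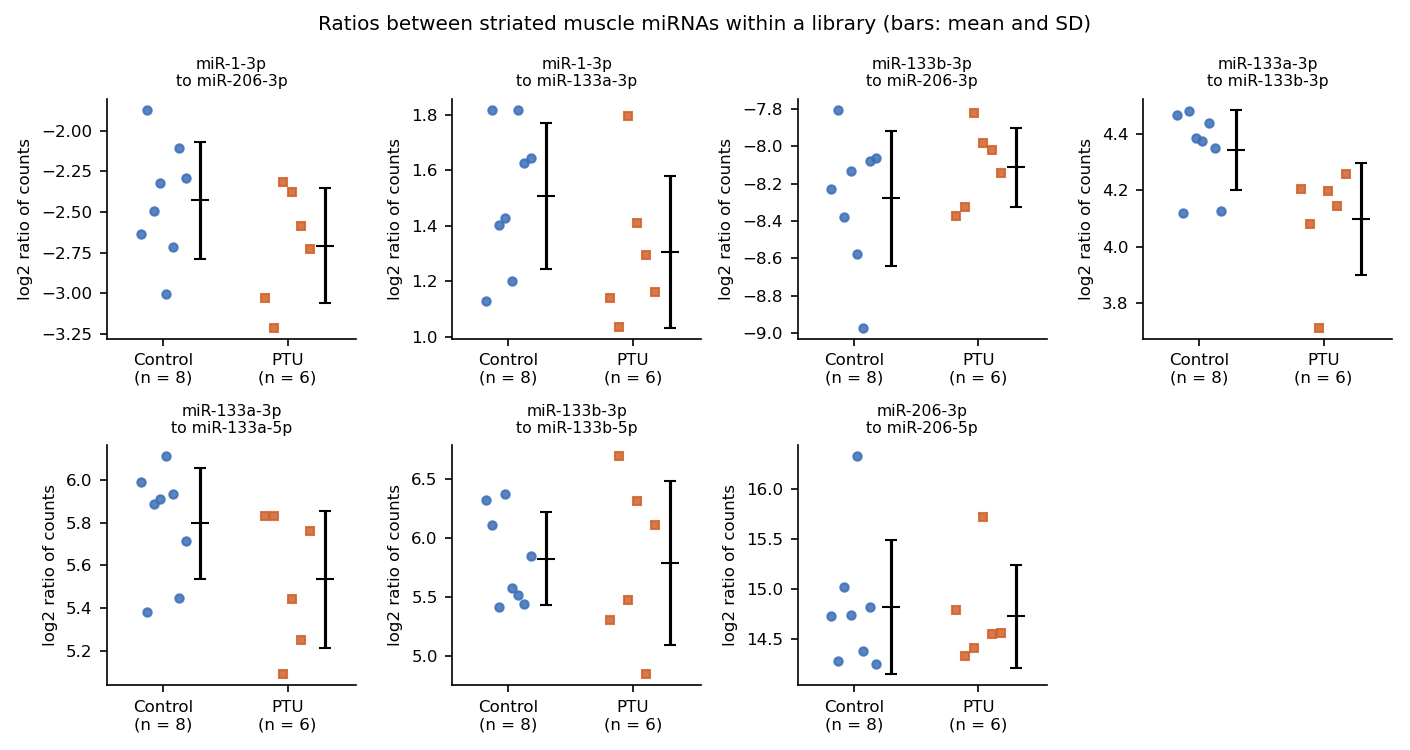
Log2 ratio of counts (y axis, 1 panel for each of 7 pairs of striated muscle miRNAs) in the 8 Control and 6 PTU libraries, as points, with bars for group mean and SD. The ratio of miR-133a-3p to miR-133b-3p has all 6 PTU libraries below the Control median of 4.38, and PTU 3 at 3.71 lies lowest.

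The level of miR-1-3p moved with the number of counts in the library. It rose with the total in each group: its correlation with the log2 total was 0.97 over the 8 Control libraries, the highest of the 357 tested, and 0.62 over the 6 PTU libraries. Over all 14 libraries r was 0.58 and rho 0.54 (permutation p of r = 0.0288, adjusted p = 0.115 over 16 relations), and r was 0.51 without Control 5 and PTU 3, the 2 libraries farthest from the median total. In the edgeR fit with the total as a term, miR-1-3p rose by 0.46 ± 0.09 on the log2 scale for each doubling of the total (quasi-likelihood test, adjusted p = 0.00437), and miR-133a-5p by 0.50 ± 0.13 (edgeR, adjusted p = 0.0264). Those were 2 of the 8 members, against 18 of 357 miRNAs that rose (5.04%) and 23 that fell (6.44%). The slope of miR-206-3p was -0.04 ± 0.11 (edgeR, adjusted p = 0.855).

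With the log2 total as a covariate, an alternative chosen after the data were seen, miR-1-3p was lower in PTU by a log2 fold change of -0.52 ± 0.10 (edgeR, adjusted p = 0.0305). It was then the 1 called miRNA of 357 (0.280%), while 55 of 357 (15.4%) had an unadjusted p under 0.05. With each library left out in turn, the fold change stayed between -0.55 and -0.48, and the adjusted p ran from 0.00421 to 0.0975, past the threshold in 7 of 14 fits. It was lost without Control 2, 3, 4, 6, 7 or 8, or without PTU 3. With the covariate and other scalings it was -0.53 with RLE factors, -0.63 with upper-quartile factors and -0.44 with no factors, each past the threshold (edgeR, adjusted p = 0.00576, 0.0324 and 0.0179). The ratio of miR-1-3p to miR-206-3p, which rose with the total in each group (r = 0.93 in Control and 0.69 in PTU), also differed with that covariate, by -0.42 (permutation of residuals, p = 0.00633, adjusted p = 0.0443 over 7 ratios). No other member or ratio was past its threshold with this covariate.

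**Figure D3:**
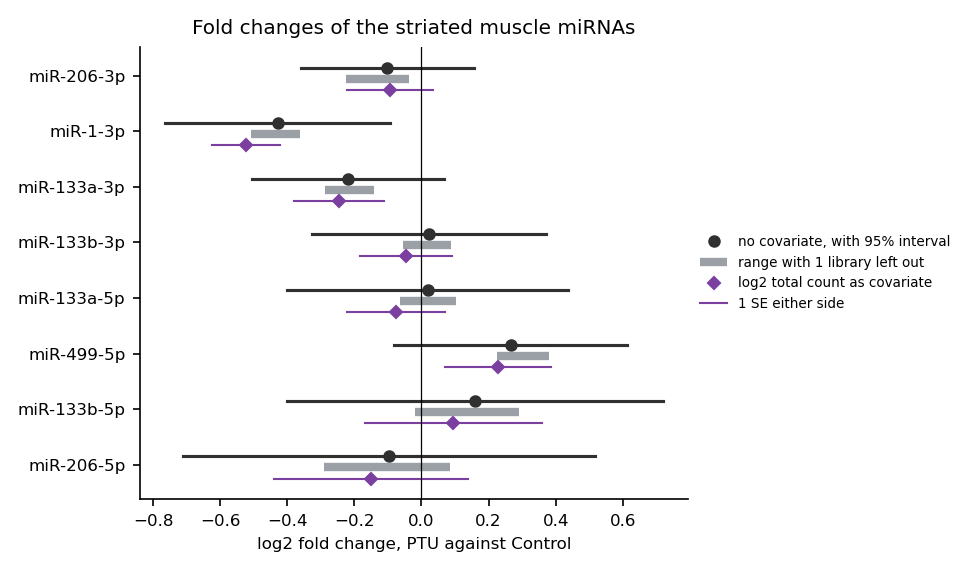
Log2 fold change of the 8 striated muscle miRNAs, PTU against Control, on the x axis: black points with 95% intervals are the edgeR quasi-likelihood fit over 357 miRNAs, grey bars the range with 1 library left out, and purple diamonds with 1 SE either side the fit with the log2 total as covariate. The black interval of miR-1-3p, from -0.76 to -0.09, is the one that leaves out 0, and without the covariate no adjusted p was under 0.05.

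**Figure D4:**
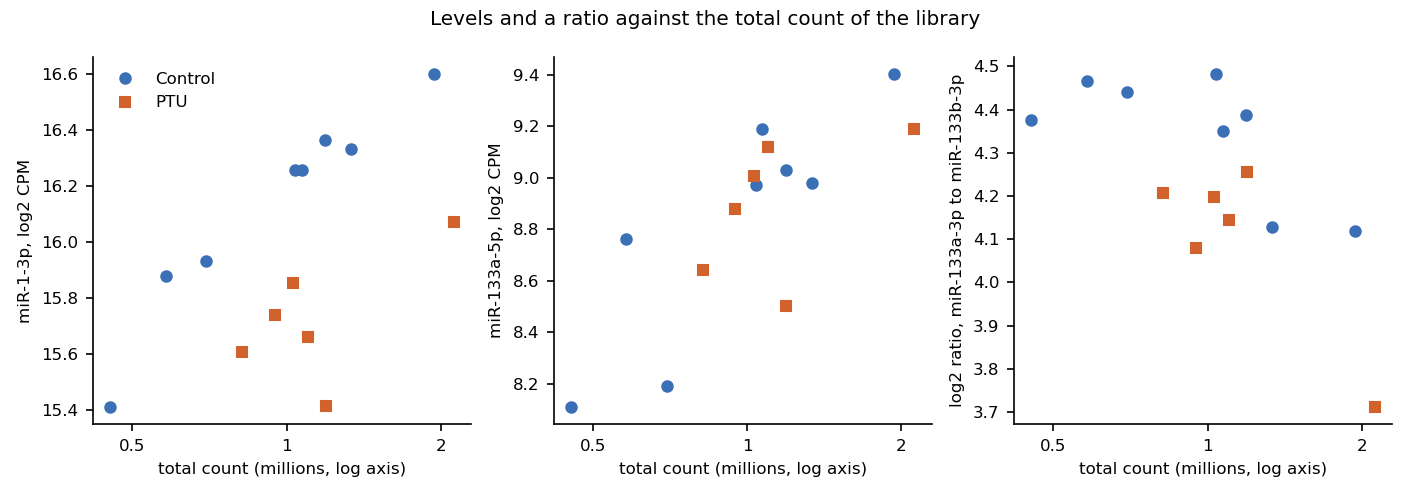
Log2 CPM of miR-1-3p, log2 CPM of miR-133a-5p and the log2 ratio of miR-133a-3p to miR-133b-3p (y axes, not starting at 0) against the total count of each library (x axis, log scale), with 8 Control circles and 6 PTU squares. miR-1-3p rises with the total, with r of 0.97 in Control and 0.62 in PTU.

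The level of miR-206-3p was lower where a red cell ratio was higher, mainly among the 6 PTU libraries. This ratio sets miR-451-5p against miR-23a-3p and is an imperfect measure of red cell content. In PTU 6 miR-23a-3p itself stood at 7455 CPM, against at most 4012 CPM in the other libraries. PTU 3 therefore had the highest ratio in PTU, although the summed red cell level was highest in PTU 6. This red cell ratio was 0.12 ± 0.57 in Control and 0.87 ± 0.78 in PTU (log2, SD, n = 8 and n = 6). Across 14 libraries it correlated with miR-206-3p at r = -0.67 (permutation p of r = 0.00874, adjusted p = 0.0466 over 16 relations) and rho = -0.63. Within PTU r was -0.88 and within Control -0.15, and r was -0.77 without Control 6 and PTU 3, the 2 libraries farthest from the median of the ratio. With this ratio as a covariate, also chosen after the data were seen, the log2 fold change of miR-206-3p was 0.04, against -0.10 without it. That of miR-1-3p was -0.51, with an adjusted p of 0.425 (edgeR). The hepatocyte miRNA miR-122-5p ran from 370 to 2567 CPM in Control and from 332.8 to 2146 CPM in PTU.

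The members did not all rise and fall together across the 14 pups. Of 28 pairs, 4 had a permutation p of Pearson's r, adjusted over the 28, under 0.05, and none had for Spearman's rho (lowest adjusted p 0.0707). The pairs were miR-133b-3p with miR-133a-5p (r = 0.84, rho = 0.63, adjusted permutation p = 0.00952), miR-133a-3p with miR-133b-3p (r = 0.74, rho = 0.72, adjusted permutation p = 0.0354), miR-1-3p with miR-133a-5p and miR-133a-5p with miR-499-5p (both r = 0.68, adjusted permutation p = 0.0463). Without the 2 libraries farthest from the median of the first-named miRNA, these r were 0.61, 0.62, 0.47 and 0.53. None of the 4 then passed (adjusted permutation p from 0.251 to 0.350), with fewer libraries over a narrower range. With all 14 libraries and group means subtracted, the r were 0.84, 0.84, 0.88 and 0.74. miR-206-3p and miR-1-3p, which share a seed, had r = 0.29 (adjusted permutation p = 0.490), and 0.16 after the group means were subtracted. The 14 points share their totals and scaling, and several members were themselves correlated with the total. The authors' counting also bears on the pairs of miR-133b-3p, which differs from miR-133a-3p only at its last base.

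By the same measure, the miRNAs outside the group whose levels were most like those of each abundant member were named by rule: the 4 highest and the 2 lowest of 349 in Pearson's r after group means were subtracted, over 14 libraries. For miR-206-3p they were miR-409a-3p (r = 0.89, rho = 0.77), miR-433-3p (0.87), miR-382-5p (0.85) and miR-434-3p (0.82), with miR-451-5p and miR-20a-5p lowest, both at -0.69. The r of the 4 highest were 0.48 to 0.58 within Control and 0.94 to 0.99 within PTU, and 0.61 to 0.73 without PTU 1 and PTU 2. For miR-1-3p they were miR-539-3p and miR-494-3p (both 0.87), miR-411-5p (0.85) and miR-337-3p (0.84), with miR-760-3p (-0.81) and miR-1224 (-0.78) lowest. For miR-133a-3p they were miR-378a-5p (0.81), miR-665 (0.80), miR-337-5p (0.78) and miR-345-5p (0.78), with miR-181c-3p (-0.78) and miR-181a-1-3p (-0.75) lowest. The 4 highest for miR-206-3p and the 4 highest for miR-1-3p all lay, as did 2 of the 4 highest for miR-133a-3p, between Mir493 and Mir410 in the gene order of GRCr8, where 67 of the 349 lie (19.2%). The miR-1-3p partners were themselves tied to the total (r from 0.79 to 0.91 after group means were subtracted), as miR-1-3p was (0.89). For those of miR-206-3p this r ran from -0.44 (miR-434-3p) to 0.26 (miR-382-5p). The r of these partners with the total were not tested. Adjusted over the 349 miRNAs, the permutation p of the 4 highest was 0.172 for miR-206-3p, 0.0233 to 0.0266 for miR-1-3p and 0.0708 to 0.159 for miR-133a-3p. These likenesses were picked as the extremes of 349, so they describe these libraries.

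**Figure D5:**
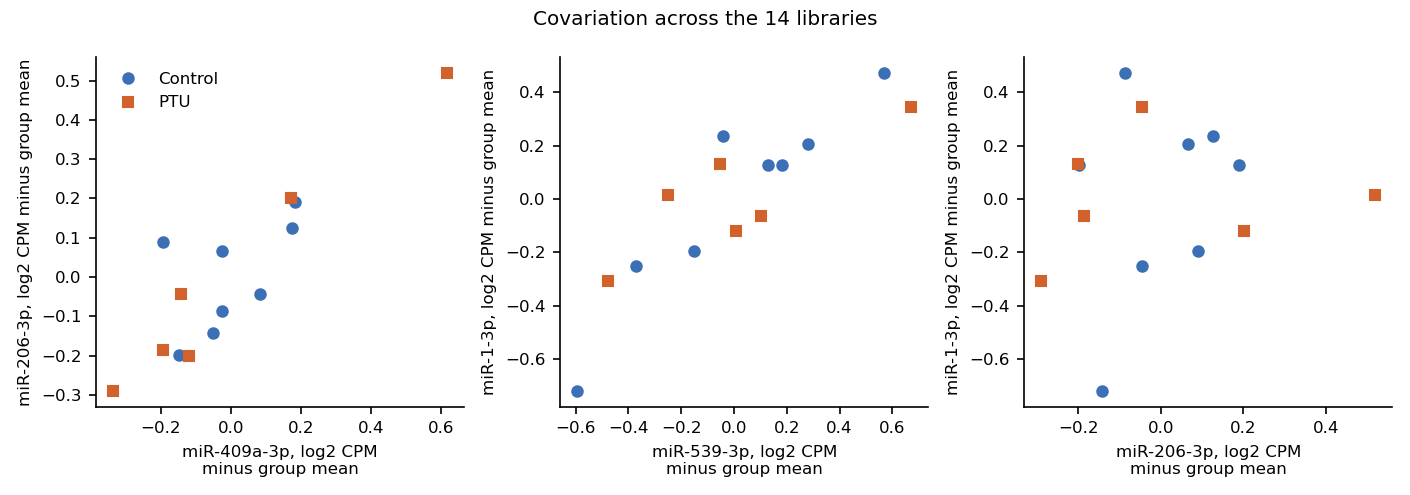
Levels across 14 libraries (log2 CPM minus the group mean on both axes, circles Control, squares PTU): miR-206-3p against miR-409a-3p, miR-1-3p against miR-539-3p, and miR-1-3p against miR-206-3p. The first and middle pairs have r of 0.89 and 0.87, and the last pair, which shares a seed, 0.16.

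Other miRNAs linked to muscle were read from a list of 23, of which 21 were tested. Of these, 14 had a log2 fold change above 0 and 7 below, with a median of 0.07, and 0 passed (edgeR quasi-likelihood test). An unadjusted p under 0.05 was found for 6 of the 21, beside the 13.2% of all tested miRNAs. These directions depended on PTU 6, the highest of the 14 libraries for 9 of the 21, a count not made over all tested miRNAs. Without PTU 6, 8 were above and 13 below 0, with a median of -0.12. Of the 21, 0 then passed and 9 had an unadjusted p under 0.05 (edgeR), beside 13.6% of all tested. All tested miRNAs moved too, from 206 above and 151 below 0 (median 0.03) to 183 above and 176 below (median 0.005). The 4 with the lowest p were miR-27b-3p (-0.38 ± 0.11, adjusted p = 0.179), miR-222-3p (1.17 ± 0.36, adjusted p = 0.216), miR-29b-3p (2.01 ± 0.70, adjusted p = 0.258) and miR-378a-3p (-0.27 ± 0.10, adjusted p = 0.258). Without PTU 6 the miR-29b-3p and miR-222-3p log2 fold changes were -0.07 and 0.45. The smooth muscle miRNAs miR-143 and miR-145, which serve to tell vessel wall from striated muscle, had 2 arms above and 2 below 0 and none passed. Their fold changes were -0.14 for miR-143-3p, 0.07 for miR-143-5p, 0.39 for miR-145-5p and -0.13 for miR-145-3p. PTU 6 was the highest library for all 4 arms, and without it the values were -0.26, -0.38, 0.03 and -0.40 in that order, 1 above and 3 below 0, and 0 passed.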

How the data were processed

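The authors deposited 1 table for the series, which holds raw counts of 375 mature miRNAs as whole numbers, with all 14 count columns matched to samples by title. The table further gives the authors' log2 fold change, their p-value and FDR, and, as deposited signal, each group's mean count. Per the submitters' processing notes, edgeR was used, with no version stated. Aligner, miRNA reference, genome build and use of molecular identifiers: not given in the sources used here. PCR reads without molecular identifiers are not independent molecules, so counting errors and floors cover counting error only. No coordinates are given. miRNA sequences and gene order came from RefSeq tables of GRCr8, which matched 325 of 357 tested miRNAs and 7 of 8 members.

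Counts were analysed in R 4.3.3 with edgeR 4.0.16: filterByExpr, TMM scaling, the quasi-likelihood test over all 14 libraries with no covariate, and an FDR of 0.05 (Benjamini-Hochberg). CPM carry the TMM factors, with 2 counts added as prior before taking log2. The members and lists were chosen with earlier results of these data known. Named by rule were all members and the 4 highest and 2 lowest in correlation with each of miR-206-3p, miR-1-3p and miR-133a-3p. The rule also took the 4 of lowest p of the other muscle miRNAs. Named after their values were seen were miR-543-3p, miR-484, miR-144-3p, miR-144-5p, miR-363-3p and miR-203b-3p. Ratios used exact permutation tests, and correlations 100000 resamples. Alternatives were other scalings, filters, DESeq2 1.42.0, limma-voom (limma 3.58.1), a replicate block and each library left out; the red cell and total covariates were chosen after seeing the data. The steps were tested on simulated data. No 2 libraries of a group were near sampling noise (smallest chi-square per degree of freedom 21.7). The labels say that each pup came from its own litter, so replicates are separate animals.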

Additional observations from a re-analysis of the deposited data

Results flagged for a closer look

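Among 48 groups of values checked for a library that lay far from the rest of its group, 5 had one, where chance gives about 1 in 20. miR-499-5p in PTU 6 was 96.6 CPM, with the nearest PTU library at 136 CPM. miR-133a-3p took 1.95% of counts in PTU 3, with the nearest at 2.27%. The log2 ratio of miR-133a-3p to miR-133b-3p was 3.71 in PTU 3, with the nearest at 4.08. The log2 ratio of miR-206-3p to miR-206-5p was 16.33 in Control 5 (nearest 15.01), where miR-206-5p had 2 counts, and 15.72 in PTU 4 (nearest 14.79), where it had 6 counts.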

How the results depend on the processing

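Called miRNAs numbered 1 with DESeq2 (miR-543-3p), 3 with the likelihood ratio test of edgeR (miR-484, miR-543-3p and miR-144-3p), 1 with the total as covariate (miR-1-3p) and 0 to 1 with a library left out (miR-203b-3p, without PTU 5), and 0 in the other fits. miR-1-3p kept its direction in each of 27 fits, from -0.53 to -0.34, and was past the threshold only with the total as covariate (-0.52). The directions of the near-0 members turned. miR-133b-3p was -0.079 with upper-quartile factors, -0.047 with limma-voom, -0.028 with the red cell ratio, -0.047 with the total as covariate, and -0.057 to 0.087 with a library left out. miR-133a-5p was -0.083, -0.13 (red cell ratio), -0.077 (total) and -0.063 to 0.10. miR-206-3p was 0.041 and miR-206-5p 0.17 with the red cell ratio. With a library left out, miR-206-5p ran from -0.29 to 0.084 and miR-133b-5p from -0.020 to 0.29. Among ratios, miR-133a-3p to miR-133b-3p ran from -0.28 to -0.17, the arms of miR-133b from -0.22 to 0.15, and those of miR-206 from -0.29 to 0.12 (0.066 with the total). miR-1-3p to miR-206-3p was -0.42 with the total. The correlation of miR-206-3p with miR-499-5p was 0.0060 and that of miR-133a-3p with miR-133b-5p 0.030 after group means were subtracted. Without the 2 farthest libraries, that of miR-1-3p with miR-499-5p was -0.15 and that of miR-133a-3p with miR-133b-3p 0.62. The cause of these shifts was not tested. Upper-quartile factors moved the median of all miRNAs to -0.08 and that of the members to -0.14, with 2 above and 6 below 0.

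The replicate numbers did not pair the samples: correlations of same-numbered libraries were 0.29, -0.25, 0.09, 0.13, 0.03 and 0.08. With the replicate block no miRNA was called, and miR-1-3p was -0.35 (adjusted p = 0.640). The ratio of miR-133a-3p to miR-133b-3p was -0.28 (exact sign-flip p = 0.0312, adjusted p = 0.219). The sign-flip test used only same-numbered pairs, so Control libraries without a PTU partner were left out. With so few pairs, 0.0312 is the smallest p it can give. After adjustment a ratio could pass only if most of the others also reached that p, so this test could not decide the question. Rare arms such as miR-206-5p, at 2 to 35 counts, are limited by depth.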
